A study of Mus musculus with 10 samples.

Results

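The 9 genes described here encode the protein kinase CK2 and the Ikaros family of transcription factors that it phosphorylates. They are the 3 CK2 subunit genes Csnk2a1, Csnk2a2 and Csnk2b, the 5 Ikaros family genes Ikzf1 to Ikzf5, and Ctbp1, which encodes a corepressor that binds Ikaros. They were taken by name out of 38887 gene identifiers, and all 9 had a row in the table. RNA was sequenced from hematopoietic progenitor cells of the bone marrow of mice bearing Lewis lung carcinoma, a transplantable mouse tumour. One group of 5 libraries, called CK2i, came from mice given BMS-595, a CK2 inhibitor, at 60 mg/kg, and the other 5 libraries came from mice given vehicle. Treatment lasted 2 weeks in both groups, and all mice carried the tumour. The labels call the vehicle libraries untreated. They give neither strain nor age nor the way progenitors were purified, and they do not say that every library is a separate mouse. The p-values therefore reflect the spread between libraries, part of which may be technical.

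The kinase CK2 phosphorylates serines and threonines without needing to be switched on. It is built from catalytic subunits, encoded by Csnk2a1 (alpha) and Csnk2a2 (alpha prime), and regulatory subunits encoded by Csnk2b (beta). Ikaros proteins are zinc finger factors that bind DNA at a core GGGAA sequence through N-terminal fingers and pair with each other through C-terminal fingers. They are known as regulators of lymphoid commitment and of multipotent progenitors, and they recruit the NuRD, Sin3 and CtBP corepressors. Phosphorylation of Ikaros by CK2 is known to lower its DNA binding and its stability, and protein phosphatase 1 removes these phosphates. RNA levels tell how much of each transcript was present, and measure neither CK2 activity nor the phosphorylation of Ikaros.

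Estimated counts summed to 34127674 to 40811539 per CK2i library and to 37569160 to 43636152 per vehicle library. All 9 progenitor markers, among them Kit, Cd34 and Mpo, were detected in every library, with summed levels of 4610 to 6570 CPM in CK2i and 2930 to 4990 CPM in vehicle. Singly they went both ways in the edgeR test described below, with 1 called higher and 1 called lower. Of the 9, 5 had log2 fold changes below 0, and the median was -0.06, from -0.31 for Gata2 to 0.63 for Mpo. CPM denotes counts scaled to a common library total, here with TMM scaling. CK2i 2 and CK2i 5 stood apart from the rest: their scores on the first principal component were -43.26 and -43.68, against -12.48 to 4.10 for CK2i 1, 3 and 4 and 9.37 to 29.62 for vehicle. Markers of other lineages also differed between the groups, although their summed ranges overlapped for all but plasma cells. In the same edgeR test 13.2% of all genes were called, and 1.2% with CK2i 2 and 5 left out. With these left out, no neutrophil, monocyte or megakaryocyte marker was called. In the plasma cell, erythroid and stromal lists 1 marker each was then called, lower in CK2i. That fit keeps only CK2i 1, 3 and 4, and fewer libraries make a call harder. In these 3 libraries, in order, the neutrophil markers summed to 2010, 1480 and 1820 CPM. The monocyte markers were at 1210, 1030 and 1160 CPM there, and the megakaryocyte markers at 2730, 3420 and 2270 CPM. The group ranges follow. The 10 neutrophil markers summed to 1480 to 2630 CPM in CK2i and 803 to 1660 CPM in vehicle, and 6 were called higher. The 8 monocyte markers summed to 1030 to 1780 CPM in CK2i and 718 to 1170 CPM in vehicle, with 3 called higher. Those of megakaryocytes, 8 in number, went the other way, with 1640 to 3420 CPM in CK2i, 2810 to 4350 CPM in vehicle and 4 called lower. The 5 plasma cell markers summed to 407 to 615 CPM in CK2i and 649 to 847 CPM in vehicle, and these sums did not overlap. Of single genes tested, 10.9% did not overlap between the groups, counting both directions. The 5 markers went both ways singly, with 3 log2 fold changes below 0. They ran from -0.94 for Jchain, the only 1 called, to 0.20 for Sdc1. The 8 erythroid markers summed to 1650 to 2190 CPM in CK2i and 1950 to 3030 CPM in vehicle, but went both ways singly, with 3 called higher, 1 called lower and a median log2 fold change of 0.02. The 8 stromal and endothelial markers were at 231 to 275 CPM in CK2i and 260 to 331 CPM in vehicle, with 2 called lower. The part of these cells in the results that follow was not tested. In bulk samples, fewer cells of a type and less RNA per cell cannot be told apart.

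Of the 9 genes, 8 passed the filter on low counts, and 1 of these 8, Ctbp1, was called in edgeR's quasi-likelihood test, lower in CK2i. An adjusted p under 0.05 over all 14346 genes tested was the threshold. Of all genes tested 13.2% passed it, 6.43% higher and 6.76% lower in CK2i, so that 1 of 8 is near the background. Because Ctbp1 was included with its result known, its call was in part fixed by the choice of genes. Neither the 3 kinase genes nor the 4 tested Ikaros family genes passed. When CK2i 2 and 5 were left out, 1.2% of all genes passed, 0.501% higher and 0.699% lower, and none of the 8 genes did. Where a value without these libraries is given below, it comes from this fit.

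**Figure D1:**
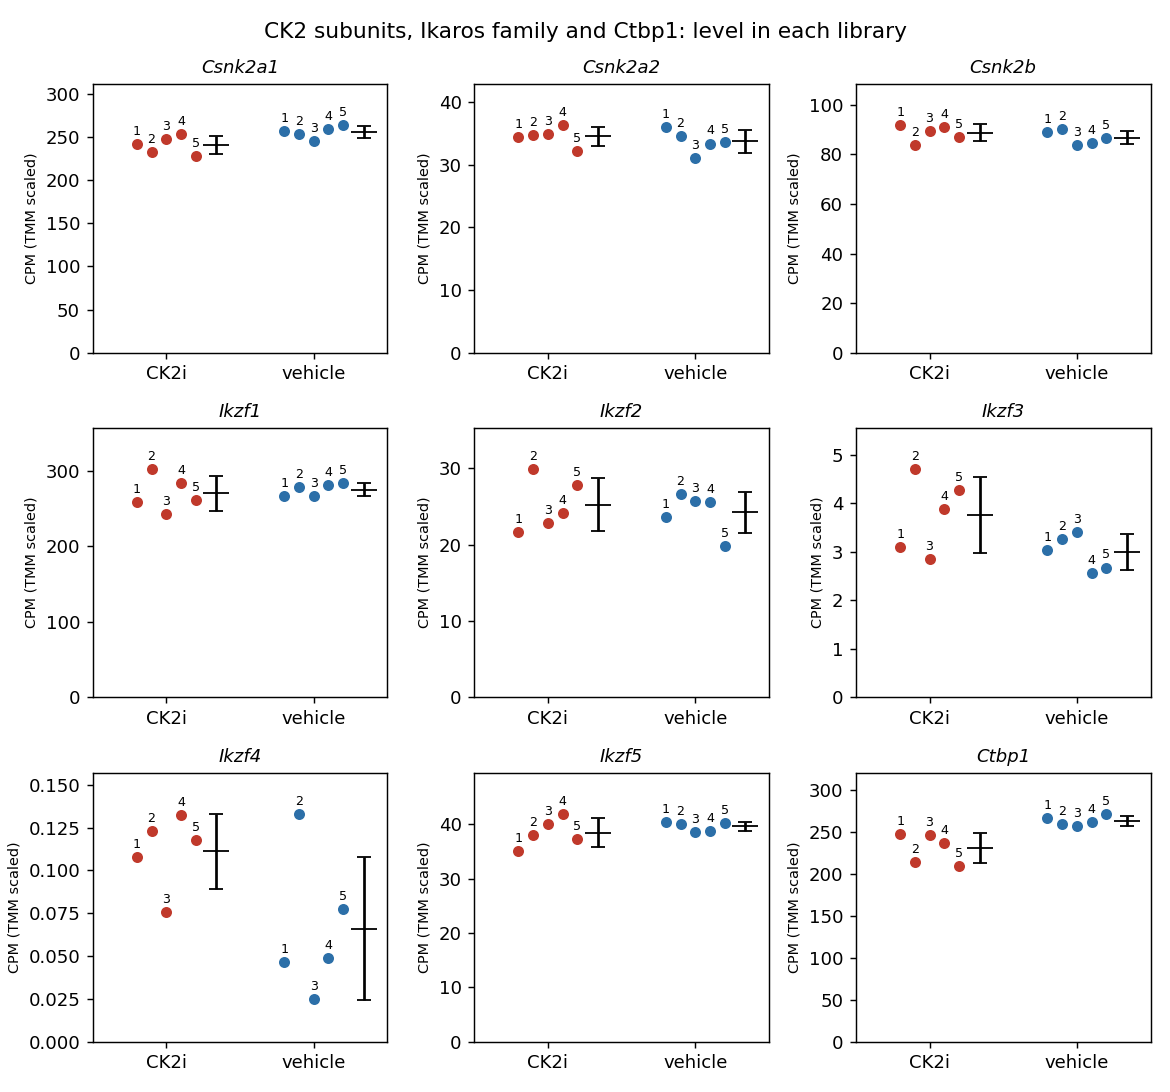
Level of each gene in every library, in CPM with TMM scaling (vertical axes, starting at 0), for the 5 CK2i libraries (red) and the 5 vehicle libraries (blue). Numbers beside points are the replicate numbers, and the black mark to the right of each group is its mean with the SD. Ctbp1 is the 1 gene whose groups do not overlap.

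Csnk2a1 encodes the main catalytic subunit (ENSMUSG00000074698; GRCm38 chromosome 2, 152226839 to 152281852, plus strand). Its level was 242, 233, 248, 254 and 229 CPM in CK2i libraries 1 to 5, against 257, 254, 245, 259 and 265 CPM in vehicle libraries 1 to 5. The groups overlapped, with CK2i 1, 2 and 5 below every vehicle library and CK2i 2 and 5 lowest. The log2 fold change was -0.09 ± 0.04 (SE), which is a CK2i level of 0.942 times vehicle with a 95% interval of 0.888 to 0.999. The edgeR p was 0.0456 before adjustment and 0.137 after it. On the FPKM scale, which divides by transcript length, the groups were at 78.0 ± 4.83 in CK2i and 78.7 ± 2.63 in vehicle (SD, n = 5 each). The processed pseudogene Csnk2a1-ps was listed at 0 counts in all 10 libraries.

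Csnk2a2 encodes the second catalytic subunit (ENSMUSG00000046707; chromosome 8, 95446096 to 95490039, minus strand). CK2i libraries 1 to 5 held 34.4, 34.7, 34.9, 36.4 and 32.2 CPM and vehicle libraries 36.0, 34.6, 31.1, 33.4 and 33.6 CPM. The ranges covered each other almost fully. Between the groups the level differed by 0.03 ± 0.05 log2 (edgeR adjusted p = 0.647), with a 95% interval of 0.950 to 1.10 times vehicle.

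Csnk2b encodes the regulatory subunit that assembles the tetramer (ENSMUSG00000024387; chromosome 17, 35116196 to 35122053, minus strand). Its CK2i libraries 1 to 5 held 92.0, 83.6, 89.5, 91.2 and 87.0 CPM, against 88.9, 90.2, 83.8, 84.4 and 86.6 CPM in vehicle. The groups overlapped, with 2 CK2i libraries above every vehicle library and 1 below. The log2 fold change was 0.03 ± 0.04 (edgeR adjusted p = 0.591), with an interval of 0.964 to 1.08 times vehicle. The gene shares 599 bases with Gpank1 on the opposite strand, which held 554 to 790 counts per library. The sources used here do not give the strand setting of the counting.

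Per length, the alpha transcript far outnumbered alpha prime. Csnk2a1 made up 89.3%, 88.3%, 89.1%, 89.2% and 89.3% of the summed FPKM of both catalytic genes in CK2i libraries 1 to 5, against 88.7%, 89.0%, 89.7%, 89.9% and 89.6% in vehicle libraries 1 to 5. CK2i 2 had the lowest share, and the groups overlapped on this scale. As a share of estimated counts, which does not divide by transcript length, the values were 87.6%, 87.0%, 87.7%, 87.5% and 87.6% in CK2i libraries 1 to 5, against 87.7%, 88.0%, 88.8%, 88.6% and 88.7% in vehicle libraries 1 to 5. There every CK2i library lay below every vehicle library, CK2i 3 below vehicle 1 by less than the rounding, and the difference was -0.895 percentage points, against -0.364 in FPKM. Csnk2b stood at 1.34 ± 0.0825 FPKM per FPKM of catalytic transcripts in CK2i and at 1.29 ± 0.0396 in vehicle (SD, n = 5 each), and these ranges overlapped. The summed FPKM of the 3 genes was 205 ± 8.69 in CK2i and 201 ± 4.72 in vehicle. These ratios are built from the chosen genes and are given as descriptions, with no test.

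Ikzf1, the gene of Ikaros, was the most abundant family member (ENSMUSG00000018654; chromosome 11, 11685003 to 11772926, plus strand). CK2i libraries 1 to 5 held 259, 302, 243, 284 and 262 CPM, and vehicle libraries 266, 279, 266, 281 and 284 CPM. The CK2i libraries spread on both sides of the vehicle range, with CK2i 2 above it and CK2i 1, 3 and 5 below it. The log2 fold change was -0.03 ± 0.06 (edgeR adjusted p = 0.753), and the interval ran from 0.901 to 1.07 times vehicle.

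RefSeq (GRCm38.p6) gives a pair of promoter windows for Ikzf1, each 300 bases long with 250 bases before and 50 after an annotated start, and 1 window for Ctbp1. They are shown because Ikzf1 encodes the DNA-binding factor and has alternative starts, and because Ctbp1 is the gene that was called. Capitals mark the GGGAA core on either strand, so TTCCC is the core read from the other strand.
Ikzf1, chr11:11685675-11685974, plus strand: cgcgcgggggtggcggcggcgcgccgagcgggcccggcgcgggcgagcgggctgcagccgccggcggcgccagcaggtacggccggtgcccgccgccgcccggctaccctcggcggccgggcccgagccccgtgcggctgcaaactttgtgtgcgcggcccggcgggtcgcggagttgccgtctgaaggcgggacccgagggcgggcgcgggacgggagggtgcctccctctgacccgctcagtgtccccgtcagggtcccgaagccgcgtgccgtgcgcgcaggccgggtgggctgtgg
Ikzf1, chr11:11689927-11690226, plus strand: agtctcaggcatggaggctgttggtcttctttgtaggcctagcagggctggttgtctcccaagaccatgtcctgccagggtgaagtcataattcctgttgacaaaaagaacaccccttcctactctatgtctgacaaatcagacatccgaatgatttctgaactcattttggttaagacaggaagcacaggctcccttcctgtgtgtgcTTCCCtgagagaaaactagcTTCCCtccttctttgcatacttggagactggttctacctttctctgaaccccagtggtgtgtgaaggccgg
Ctbp1, chr5:33274955-33275254, minus strand: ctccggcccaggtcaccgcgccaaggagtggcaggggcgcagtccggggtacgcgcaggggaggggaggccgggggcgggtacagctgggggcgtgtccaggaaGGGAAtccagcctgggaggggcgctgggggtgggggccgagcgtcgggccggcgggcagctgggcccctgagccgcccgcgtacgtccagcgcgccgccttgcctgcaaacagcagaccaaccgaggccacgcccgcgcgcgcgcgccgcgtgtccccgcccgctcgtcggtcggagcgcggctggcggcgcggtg

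The first Ikzf1 window is 81.3% G and C with no GGGAA in its letters, and the second is 49.0% G and C with 2 matches, both on the other strand. The Ctbp1 window is 78.7% G and C with 1 match, where the median over all 32851 promoter windows is 52.7%. A match is common, since 62.7% of all windows hold GGGAA on at least 1 strand. Windows were found for 6 of the 9 genes, 9 windows in all, of which 6 held the core. Those of Csnk2a1 and Csnk2a2 held none. The longer form TGGGAA, which contains the core, was in 25.6% of all windows and, among these genes, only in the windows of a pair of downstream Csnk2b starts, which overlap each other.

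Ikzf2 encodes Helios (ENSMUSG00000025997; chromosome 1, 69531214 to 69687245, minus strand). Its level was 21.6, 29.9, 22.8, 24.1 and 27.8 CPM in CK2i libraries 1 to 5 and 23.6, 26.6, 25.7, 25.5 and 19.9 CPM in vehicle libraries 1 to 5. CK2i 2 and CK2i 5 lay above every vehicle library, and the other 3 lay within the vehicle range. The log2 fold change was 0.06 ± 0.10 (edgeR adjusted p = 0.723). Without CK2i 2 and 5 the log2 fold change was -0.09 ± 0.09 (adjusted p = 0.646), so no direction can be given for Helios.

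Ikzf3 encodes Aiolos, a family member of lymphocytes (ENSMUSG00000018168; chromosome 11, 98464902 to 98546031, minus strand). It was low throughout, with 3.09, 4.71, 2.85, 3.88 and 4.28 CPM in CK2i libraries 1 to 5, against 3.03, 3.27, 3.41, 2.56 and 2.68 CPM in vehicle libraries 1 to 5. CK2i 2, 4 and 5 lay above all vehicle libraries, and CK2i 1 and 3 within their range. The log2 fold change of 0.33 ± 0.16 was the largest of the 8 tested genes in size and did not pass (edgeR adjusted p = 0.159), and its interval reached from 0.991 to 1.59 times vehicle. Without CK2i 2 and 5 it was 0.13 ± 0.15 (adjusted p = 0.700). The 10 B cell markers summed to 17.2 to 21.8 CPM in CK2i and 15.4 to 21.4 CPM in vehicle, with Pax5 and Igll1 at 0 in some libraries. The 10 T and NK cell markers summed to 7.06 to 9.52 CPM in CK2i and to at least 7.67 CPM in vehicle, where the groups overlapped and Cd3e was at 0 in some libraries. The part of these cells in the Ikzf3 values was not tested.

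Ikzf4, the gene of Eos (ENSMUSG00000002578; chromosome 10, 128630843 to 128645991, minus strand), was at the limit of detection. It held 4, 5, 3, 5 and 4 estimated counts in CK2i libraries 1 to 5, against 2, 5, 1, 2 and 3 in vehicle libraries 1 to 5. The gene did not pass the filter and was not tested, and no fold is given.

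Ikzf5 encodes Pegasus, the most divergent member of the family (ENSMUSG00000040167; chromosome 7, 131388652 to 131410521, minus strand). Its CK2i libraries 1 to 5 held 35.1, 38.0, 40.1, 42.0 and 37.3 CPM, and its vehicle libraries 40.4, 40.1, 38.6, 38.8 and 40.3 CPM. CK2i 1, 2 and 5 lay below every vehicle library and CK2i 4 above. The log2 fold change was -0.04 ± 0.05 (edgeR adjusted p = 0.570), with an interval of 0.899 to 1.05 times vehicle. The gene overlaps Pstk on the opposite strand over 5831 bases. Pstk held 298 to 463 counts per library, so without a known strand setting the reads cannot be fully told apart. The annotated span of Ikzf5 also overlaps that of Fgfr2 on the same strand, over 21870 bases. Fgfr2 held 14 to 54 counts per library, and strand would not separate its reads.

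Per length, Ikzf1 supplied most of the family's transcripts. Its share of the summed FPKM of the 5 genes was 83.1%, 85.8%, 84.1%, 83.8% and 82.6% in CK2i libraries 1 to 5, against 83.5%, 84.3%, 83.8%, 85.5% and 85.5% in vehicle libraries 1 to 5. Ikzf5 followed at 12.3% ± 1.21 in CK2i and 12.4% ± 0.654 in vehicle (SD, n = 5 each), and Ikzf2 at 2.37% ± 0.269 in CK2i and 2.16% ± 0.245 in vehicle. Ikzf3 took 1.59%, 1.28%, 1.33%, 1.03% and 1.72% in CK2i libraries 1 to 5 and 1.06%, 0.786%, 1.16%, 0.654% and 0.889% in vehicle libraries 1 to 5. Only CK2i 4 lay within the vehicle range for Ikzf3 on this scale. As a share of estimated counts, Ikzf3 took 0.968%, 1.26%, 0.921%, 1.10% and 1.29% in CK2i libraries 1 to 5. Vehicle libraries 1 to 5 were at 0.909%, 0.938%, 1.02%, 0.736% and 0.771%. There CK2i 1 and 3 lay within the vehicle range, and CK2i 2, 4 and 5 above it. All 5 shares overlapped between the groups.

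**Figure D2:**
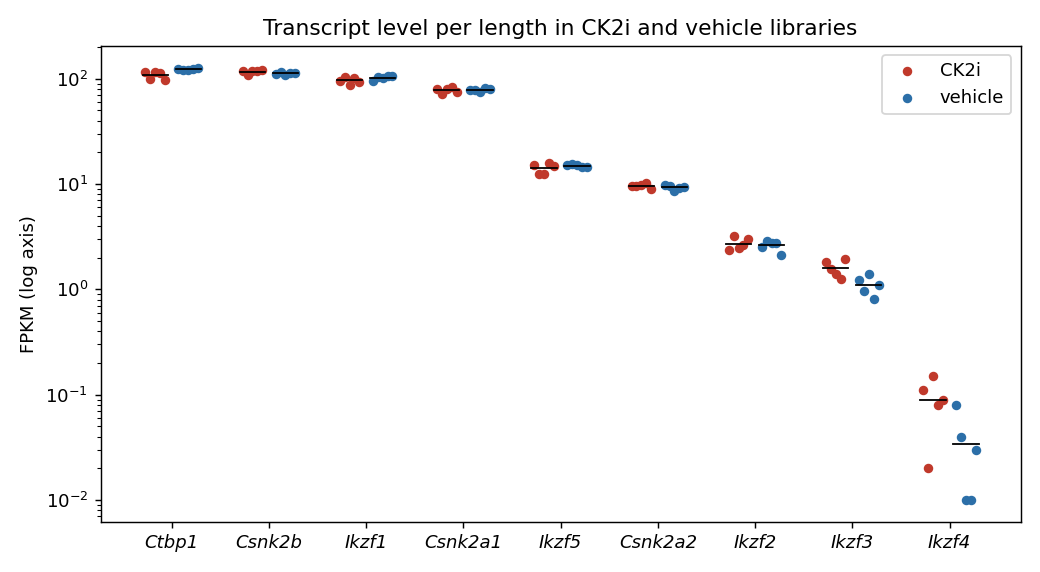
FPKM of each gene (vertical log axis) in the 5 CK2i libraries (red) and the 5 vehicle libraries (blue), with a black line at each group's mean and genes in the order of the vehicle means. The highest means are 117 FPKM in CK2i, for Csnk2b, and 124 FPKM in vehicle, for Ctbp1, and the lowest are 0.0900 FPKM in CK2i and 0.0340 FPKM in vehicle, both for Ikzf4.

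The order of the FPKM means in vehicle was Ctbp1, Csnk2b, Ikzf1, Csnk2a1, Ikzf5, Csnk2a2, Ikzf2, Ikzf3 and Ikzf4, and it held in each of the 5 vehicle libraries, with no overlap between neighbours. In CK2i, Csnk2b at 117 ± 5.41 FPKM stood above Ctbp1 at 109 ± 9.20 FPKM in all 5 libraries, although their ranges overlapped. In vehicle Csnk2b was at 113 ± 2.83 FPKM and Ctbp1 at 124 ± 2.63 FPKM. Ctbp1 and Ikzf1 also overlapped in CK2i, with Ctbp1 higher in 4 of 5 libraries, while the remaining neighbours kept apart. Among genes with a mean of at least 1 FPKM, Ctbp1 was above 92.7%, Csnk2b above 92.6%, Ikzf1 above 91.2% and Csnk2a1 above 88.6% of the others, whereas Csnk2a2 was above 36.3% and Ikzf3 above 3.93%.

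Ctbp1 encodes C-terminal binding protein 1, a corepressor that docks on Ikaros and many other factors through a short peptide motif (ENSMUSG00000037373; chromosome 5, 33247723 to 33274994, minus strand). It was included in the set with its result known. Its level was 247, 214, 246, 237 and 209 CPM in CK2i libraries 1 to 5, against 267, 259, 257, 261 and 272 CPM in vehicle libraries 1 to 5. Every CK2i library lay below every vehicle library, as was the case for 5.76% of all genes tested, or 10.9% counting both directions, and CK2i 2 and 5 were lowest. The gene fell to 231 ± 17.9 CPM in CK2i, against 263 ± 5.93 CPM in vehicle (SD, n = 5 each), a log2 fold change of -0.19 ± 0.05 (edgeR adjusted p = 0.0394). The interval was 0.810 to 0.948 times vehicle. In FPKM, CK2i libraries 1 to 5 were at 117, 100.3, 117, 113 and 97.9 and vehicle libraries at 125, 122, 121, 123 and 128, again without overlap, as for 4.64% of 12369 genes in this direction and 10.6% in either.

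The fall of Ctbp1 was small and its call depended on single libraries. Leaving out each library in turn, it passed 3 times in 10, namely without CK2i 1, CK2i 3 or CK2i 4, and the edgeR adjusted p ran from 0.0223 to 0.0873. Without CK2i 2 and 5 the log2 fold change was -0.12 ± 0.04 (edgeR adjusted p = 0.135). Ctbp1 passed in DESeq2 (adjusted p = 0.0116), which called 20.6% of all genes, and did not pass in limma on log2(FPKM + 1) (0.0602), which called 8.58%. In a fit with 1 surrogate variable, which called 0.209%, its log2 fold change was -0.05 (edgeR adjusted p = 0.677). That variable ran with treatment, with a correlation of -0.70 to the group, so the fit also takes out part of the group difference itself. The paralog Ctbp2, named after its values were seen, was at 41.7 ± 1.82 CPM in CK2i and 38.3 ± 1.27 CPM in vehicle (log2 0.13 ± 0.04, edgeR adjusted p = 0.0696).

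**Figure D3:**
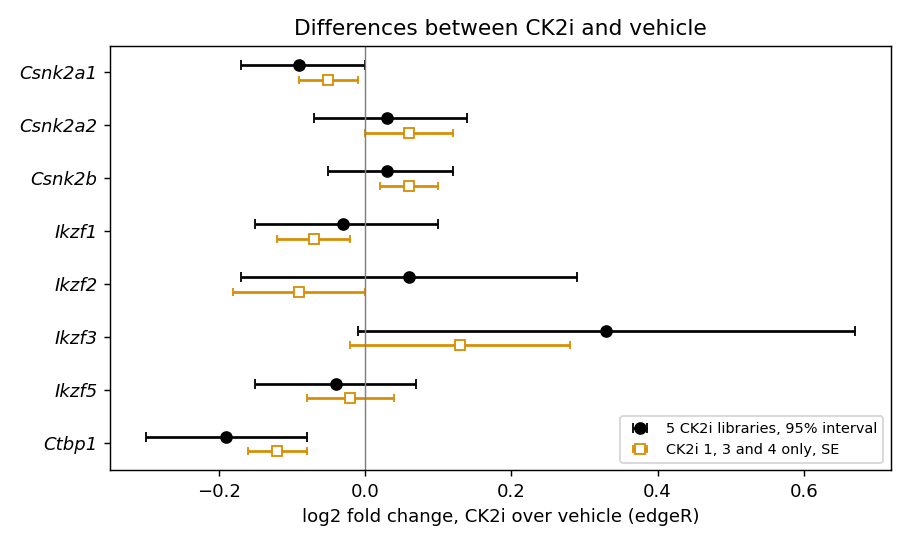
Log2 fold change of CK2i over vehicle (horizontal axis) for the 8 genes tested by edgeR. Black circles are the fit of all libraries with 95% intervals and orange squares the fit without CK2i 2 and 5, with the SE. Ctbp1 lies at -0.19 and -0.12, and Ikzf2 is at 0.06 and -0.09.

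The treated libraries varied more among themselves than the vehicle libraries. The SD of log2 CPM was wider in CK2i for 7 of the 8 tested genes, Csnk2a2 being the exception, and for 68.7% of all genes tested. For Ctbp1 it was 0.113 in CK2i and 0.032 in vehicle, for Ikzf1 0.123 in CK2i and 0.045 in vehicle, and for Ikzf5 0.099 in CK2i and 0.032 in vehicle. Over all genes tested, the median SD was 0.148 in CK2i and 0.111 in vehicle.

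The estimated counts and the FPKM of a gene together give the mean effective length of the transcripts that RSEM assigned reads to, since FPKM divides the count by that length. This measure was added after the values were seen. It takes the total of the table's counts as the library size behind FPKM, which the sources used here do not state, so that lengths in bases are approximate and not to be set exactly against annotated ones. For Ctbp1 it was 2120 to 2124 bases in CK2i and 2121 to 2122 bases in vehicle, and for Csnk2a2 3599 to 3604 bases in CK2i and 3599 to 3601 bases in vehicle. It was 9252 to 9269 bases in CK2i and 9239 to 9265 bases in vehicle for Ikzf2. The values of these 3 genes were nearly constant, so that counts and FPKM carry the same comparison. The other 5 tested genes varied by more than 5% between libraries.

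For Ikzf1 the implied length was 2727, 2889, 2781, 2814 and 2759 bases in CK2i libraries 1 to 5, against 2754, 2680, 2641, 2650 and 2683 bases in vehicle libraries 1 to 5. CK2i libraries 2 to 5 lay above all vehicle libraries. GENCODE M21 lists 6 Ikzf1 transcripts of 242 to 5163 bases. For Csnk2a1 the order was the other way, with 3054, 3204, 3139, 3040 and 3060 bases in CK2i and 3279, 3263, 3251, 3157 and 3281 bases in vehicle. All CK2i libraries but CK2i 2 lay below all vehicle libraries there. Annotated Csnk2a1 transcripts, 5 in number, measure 466 to 4206 bases.

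Limma on log2 implied length, over 5669 genes whose length varied, called none at an adjusted p under 0.05 (0.0%), while 509 genes (8.98%) had an unadjusted p under 0.05 and the groups of 1.68% did not overlap. The differences of Ikzf1 and Csnk2a1 were 0.06 ± 0.02 and -0.07 ± 0.02 log2 (SE), with unadjusted limma p of 0.0199 and 0.0108 and adjusted p of 0.506 and 0.490. Ikzf3, with 1700 to 3142 bases in CK2i and 2431 to 3375 bases in vehicle, and Ikzf5, with 2329 to 3194 bases in CK2i and 2513 to 2747 bases in vehicle, varied most, and their adjusted p were 0.729 and 0.858. Csnk2b was at 708 to 786 bases in CK2i and 748 to 788 bases in vehicle (adjusted p = 0.934). For these 5 genes a difference in FPKM is therefore not the same measurement as a difference in counts, and which transcripts differ is not resolved by gene totals.

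**Figure D4:**
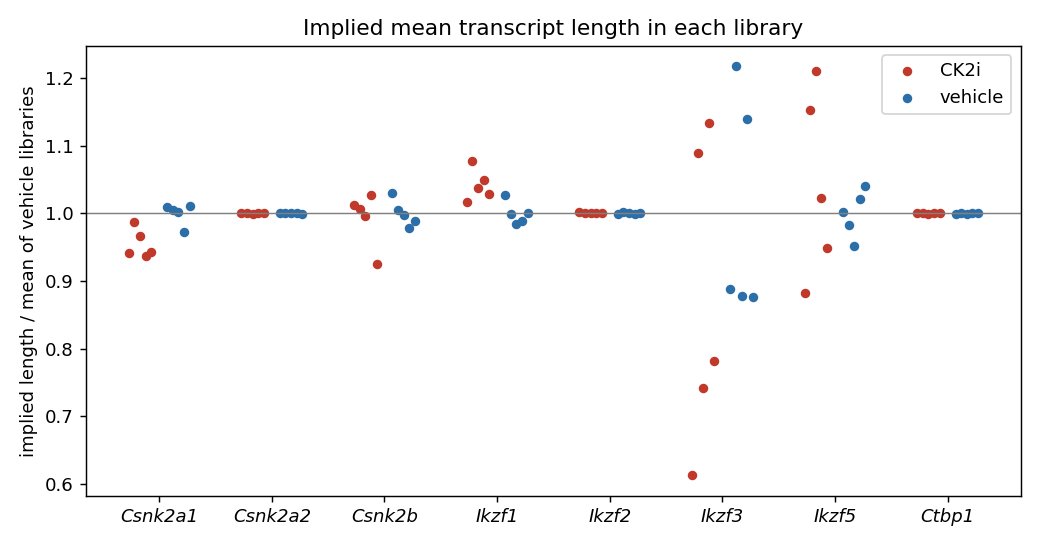
Implied mean transcript length of each gene in every library, divided by the mean of the vehicle libraries (vertical axis), for CK2i (red) and vehicle (blue). Csnk2a2, Ikzf2 and Ctbp1 are flat, Ikzf1 is mostly higher and Csnk2a1 mostly lower in CK2i, and Ikzf3 and Ikzf5 scatter in both groups.

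The genes that work with CK2 and Ikaros were read from 8 lists in the same fit. Of 92 genes 88 were tested, and 4 were called, all lower in CK2i, which is 4.55% of those tested against 13.2% of all genes. Their median log2 fold change was -0.01, where that of all genes was -0.001. Without CK2i 2 and 5, none of these genes passed.

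In the list of the NuRD complex, which joins nucleosome remodelling to histone deacetylation and is the main partner of Ikaros in lymphocytes, 1 of 13 genes was called, and the median was -0.01, with a range up to 0.35 for Gatad2b, which did not pass. Mta3, a subunit of that complex, held 48.8, 43.4, 47.2, 49.3 and 46.0 CPM in CK2i libraries 1 to 5, against 57.3, 51.6, 53.9, 56.2 and 59.5 CPM in vehicle libraries 1 to 5. Every CK2i library lay below every vehicle library, as for 5.76% of all genes tested, or 10.9% counting both directions. Mta3 was named because it was called, so this separation is no further support. It fell by 0.25 ± 0.05 log2 (edgeR adjusted p = 0.0187) and passed whichever of the 10 libraries was left out. Without both CK2i 2 and 5 it did not pass (adjusted p = 0.0912), at a log2 fold change of -0.20. The remodelling enzyme gene Chd4, named after its values were seen, was at 731 ± 27.6 CPM in CK2i and 736 ± 21.1 CPM in vehicle (adjusted p = 0.877).

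None of the 13 Sin3, CtBP and other corepressor partners passed, with log2 fold changes from -0.13 for Sin3b to 0.14 for Suz12. Among 14 modifiers of Ikaros, which take in protein phosphatase 1, the SUMO enzymes and the cereblon ligase that immunomodulatory drugs turn against human Ikaros, 1 was called. Cul4a, the cullin scaffold of that ligase, held 218, 215, 218, 229 and 209 CPM in CK2i libraries 1 to 5, against 249, 228, 249, 249 and 273 CPM in vehicle libraries 1 to 5. Only CK2i 4 reached the lowest vehicle library. It fell by 0.20 ± 0.05 log2 (edgeR adjusted p = 0.0283). Leaving out single libraries, it did not pass without CK2i 2, CK2i 5 or vehicle 1, 3, 4 or 5 (adjusted p 0.0531 to 0.0684), nor without both CK2i 2 and 5 (0.133). Its log2 fold change was -0.23 to -0.16 on leaving out single libraries and -0.17 without both. None of the 20 genes listed for proteins that CK2 phosphorylates passed, with a median of 0.00 and a range from -0.19 for Nfkbia to 0.17 for Hmga1. Nor did any of the 6 casein kinase 1 genes, a separate kinase family that shares the name, which ran from -0.14 for Csnk1g2 to 0.26 for Csnk1g1.

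Of 22 tested genes in 3 lists of genes tied to Ikaros, 2 were called, which is 9.09% against 13.2% of all genes. Among 8 genes reported as Ikaros targets in human leukemia cells, Kdm5b, a histone demethylase gene, held 82.1, 85.4, 81.4, 88.8 and 83.0 CPM in CK2i libraries 1 to 5, against 94.0, 92.5, 103, 96.9 and 92.3 CPM in vehicle libraries 1 to 5. The groups did not overlap, with CK2i lower, as for 5.76% of all genes tested, or 10.9% counting both directions. This gene too was named because it was called, so the separation is no further support. Kdm5b fell by 0.19 ± 0.04 log2 (edgeR adjusted p = 0.0235). It did not pass without CK2i 5 (adjusted p = 0.0587), without vehicle 4 (0.0546) or without both CK2i 2 and 5 (0.0883). Its fold change on the log2 scale stayed at -0.21 to -0.16 on leaving out single libraries and at -0.19 without both. The other 7 did not pass, and the median of the list was 0.05. Among 12 lymphoid progenitor genes, 10 were tested, with a median of -0.17 and a range up to 0.82 for Rag1, which did not pass. Ccr9, a chemokine receptor gene of lymphoid and plasmacytoid dendritic precursors, held 1.94, 1.73, 1.71, 2.11 and 1.12 CPM in CK2i libraries 1 to 5, against 2.11, 3.01, 3.76, 3.68 and 2.45 CPM in vehicle libraries 1 to 5. CK2i 4 reached the lowest vehicle library and the other 4 lay below it. It fell by 0.80 ± 0.21 log2 (edgeR adjusted p = 0.0356). It did not pass without CK2i 2, CK2i 5 or any single vehicle library but vehicle 1 (adjusted p 0.0503 to 0.0769), nor without both CK2i 2 and 5 (0.150). Its log2 fold change was -0.90 to -0.68 on leaving out single libraries and -0.65 without both. Of the 6 Notch target genes known to be repressed by Ikaros, 4 were tested and none passed, with a range from -0.26 for Hes1 to 0.02 for Nrarp.

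**Figure D5:**
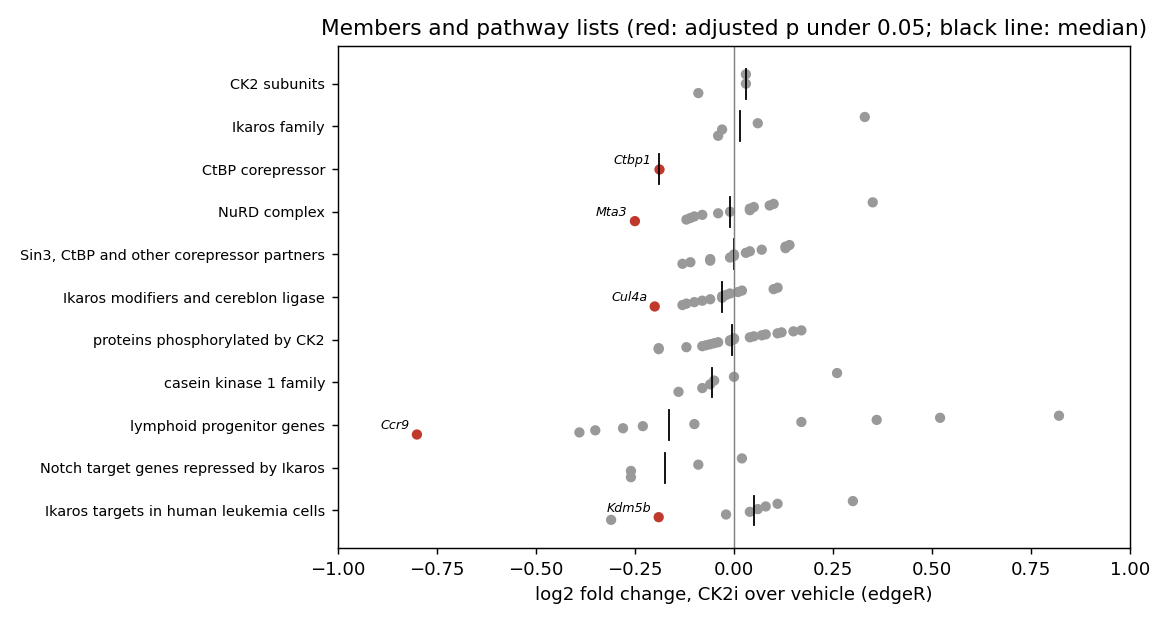
Log2 fold change of CK2i over vehicle (horizontal axis) for each tested gene of the CK2 and Ikaros sets and of the 8 pathway lists (rows). Red points passed an adjusted p of 0.05 in edgeR, grey points did not, and black lines are medians. The red points are Ctbp1, Mta3, Cul4a, Ccr9 and Kdm5b, all below 0.

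The genes whose levels ran most like 4 of the genes described were found among 7124 named genes with a mean of at least 10 FPKM, by Pearson's r of log2 CPM over the 10 libraries, as a description. The libraries share 2 groups and, in CK2i, a pair that stood apart. Ctbp1 ran most like Aldh7a1 (r = 0.993), Car1 (0.984) and Aldh18a1 (0.981). Car1, a carbonic anhydrase gene of early red cell precursors that is also in the list of erythroid markers, fell by 0.77 log2 (edgeR adjusted p = 0.0205). It was the lowest of the 8 erythroid markers and the only 1 called lower. Of the others 3 were called higher, up to 1.68 log2 for Slc4a1, and the median of the list was 0.02. None of the 8 erythroid markers was at 0 in any library, and the part of red cell precursors in the Ctbp1 values was not tested. Csnk2a1 ran most like Ttll12 (r = 0.988), Hdhd5 (0.979) and Rabggtb (0.976). For Csnk2b these were Psmc3 (r = 0.919), Plrg1 (0.917) and Gemin6 (0.914). For Ikzf1 they were Bcl2l11 (r = 0.911), Eif5 (0.909) and Hnrnpdl (0.896).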

How the data were processed

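Per the submitters' processing notes, Bowtie2, RSEM 1.2.31 and DESeq2 were used with the build mm10; the sources used here name no annotation, strand setting or filter. Per the labels' protocols, total RNA went into a stranded kit and was read as paired ends. The deposited estimated counts per gene are whole numbers, so rounding changed none. FPKM values, deposited beside them by the authors, divide each count by transcript length and library size. Symbols and coordinates came from GENCODE M21 (GRCm38, the same assembly as mm10), which matched 37570 of 38887 identifiers; the unmatched held at most 0.536% of a library's counts, and 2 empty lines were left out.

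Counts were tested with edgeR 4.0.16 (R 4.3.3): TMM scaling, filterByExpr with a minimum count of 10, quasi-likelihood test with group as the only term, two-sided, Benjamini-Hochberg adjustment over 14346 genes, threshold 0.05. Standard errors are the log2 fold change over the square root of F. The script was tested on simulated counts, with 50 genes changed per size and direction. It recovered 100% of 2-fold changes, 78% of 1.5-fold rises and 68% of 1.5-fold falls. Smaller changes, such as those of the genes described, were not simulated. The biological coefficient of variation over all genes was 14.2%. Counting error, the inverse square root of the mean count, is at most 3.24% for the tested genes except Ikzf3. For Ikzf3 in vehicle it is 9.13% beside a spread of 12.3%, and for Ikzf5 in vehicle 2.51% beside 2.21%, so that it makes up much or all of these spreads. No replicates agreed within sampling noise (chi-square per degree of freedom 10.96 to 72.9). Alternatives used DESeq2 1.42.0, limma 3.58.1 on log2(FPKM + 1) or log2(FPKM + 0.1), genes with a group mean of at least 1 FPKM, and sva 3.50.0. Implied length is the count divided by FPKM and by the total of the table's counts, assumed to be the library size behind FPKM, scaled to bases, for genes at 0.5 FPKM and 10 counts or more in every library; limma was run where it varied over 1.05-fold.

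The genes, the lists and the tests were chosen with earlier results of these data known. All 9 genes are named whatever their test says, at most 3 called genes per pathway list, and the 3 most alike genes for 4 of the 9.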

Additional observations from a re-analysis of the deposited data

Results flagged for a closer look

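In 60 groups of 5 values (levels, implied lengths and shares), 2 had a single library whose gap to its nearest neighbour exceeded Dixon's critical share of the range (0.76 and 0.767), where chance gives about 5%. The implied length of Csnk2a1 in vehicle 4 was 3157 bases, below the 3251 to 3281 bases of the other vehicle libraries, and within the 3040 to 3204 bases of the CK2i libraries. The share of Csnk2a1 in the catalytic FPKM of CK2i 2 was 88.28%, below the 89.07% to 89.31% of the other CK2i libraries, where vehicle libraries ran from 88.7% to 89.9%.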

How the results depend on the processing

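The genes called numbered 1892, and 3124 with DESeq2, 1061 and 1065 with limma at pseudocounts of 1 and 0.1, 1139 with the replicate block, 30 with 1 surrogate variable and 175 with CK2i 1, 3 and 4 only. Without 1 library the count ran from 446 to 3198; leaving out CK2i 2, 3 or 5 gave 617, 3198 and 446, and the count was 458, 758, 528 and 546 without vehicle 1, 3, 4 and 5. The 1 call among the genes described, Ctbp1, became 0 with limma, the replicate block, 1 surrogate variable and CK2i 1, 3 and 4 only, and 0 to 1 without 1 library. Its direction held in all 18 alternatives, with log2 fold changes from -0.22 to -0.05 and adjusted p from 0.0116 to 0.677. The pathway calls, 4, became 12 with DESeq2, 2 with limma at either pseudocount, 2 with the replicate block, and 0 with 1 surrogate variable or CK2i 1, 3 and 4 only. They ran from 1 to 18 without 1 library, with 18 without CK2i 3, 2 without CK2i 2, vehicle 3 or vehicle 5, and 1 without CK2i 5 or vehicle 4. The causes were not tested.

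Replicate numbers gave no clear pairing of the libraries: same-numbered deviations correlated at -0.159 to 0.228, and 2 of 5 CK2i libraries correlated best with their own number. These 5 correlations are too few to settle whether the libraries were paired. With the replicate block the Ctbp1 adjusted p was 0.0681. None of the other 7 tested genes was called in any alternative, and their sign held in all 18 except for Ikzf2 (4 with the other sign or 0) and Csnk2a2, Ikzf1 and Ikzf3 (1 each). The Csnk2a1 share differed by -0.364 percentage points in FPKM and by -0.895 in counts. Without 1 library the FPKM difference ran from -0.536 to -0.178, that of the Csnk2b share from 0.351 to 1.38 and that of the Ikzf1 share from -1.10 to -0.302. Depth limits Ikzf4, at 1 to 5 counts, and Ikzf3.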
